A study of Mus musculus with 8 samples.

Results

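The genes described here are 8 genes of the insulin and growth factor axis: the kinase genes Sgk1, Sgk3, Akt1 and Akt2, the receptor adaptor genes Irs1 and Irs2, and the transcription factor genes Foxo1 and Foxo3. They were chosen by name, with earlier results of these data known, and all 8 have values among the 17488 genes with values in the deposited table. RNA was sequenced from mouse E14 embryonic stem cells of strain 129/Ola in 8 libraries, 2 in each of 4 groups. Cells of the GSK3α line lack the endogenous kinase GSK3α and carry a GSK3α-L195G transgene, and cells of the GSK3β line lack endogenous GSK3β and carry a GSK3β-L132G transgene. Each line was either left untreated or given 5 µM 3MB-PP1, an inhibitor of kinases with an enlarged ATP pocket, for 2 h, in N2B27 medium after 6 h of serum starvation. The labels name no vehicle, no promoter for the transgenes and no line without a mutant kinase. There is 1 line for each kinase, so line and kinase cannot be told apart. Nothing says that the 2 libraries of a group came from separate cultures, so the spread behind each p-value is that between libraries and may be technical.

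Insulin and insulin-like growth factors act through receptors that phosphorylate the IRS adaptors, which recruit phosphoinositide 3-kinase (PI3K). The lipid that PI3K makes brings AKT kinases to the membrane, where PDK1 and the TOR complex 2 activate them; SGK kinases are close relatives that depend on the same activators. AKT and SGK phosphorylate FOXO factors, which then leave the nucleus, and AKT also phosphorylates GSK3. The values below are RNA levels and hold no measure of phosphorylation.

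Sgk1 had the largest change with 3MB-PP1 in the GSK3β line among the 7 tested of the 8 genes. RefSeq lists several starts for Sgk1, which the deposited value adds together. The promoters of 7 of the 8 genes were matched by symbol in RefSeq (build GRCm38.p6), 16 promoters in all, each from 250 bases before to 50 after a start. Both strands were searched for 3 motifs: the FOXO motif GTAAACA, held by 3.65% of all 32851 promoters of that length, the TCF motif CTTTGAT, held by 3.73%, and the glucocorticoid receptor motif, held by 0.475%. The last is made of GNACA and TGTNC with 3 bases between them, where N may be any base, and reads the same on both strands. Of the 6 Sgk1 promoters, 2 held a match, and these are shown with the promoter of highest GC content (69.7%), which held none; capitals mark the match, and all are on the plus strand.
Sgk1 chr10:21978422-21978721: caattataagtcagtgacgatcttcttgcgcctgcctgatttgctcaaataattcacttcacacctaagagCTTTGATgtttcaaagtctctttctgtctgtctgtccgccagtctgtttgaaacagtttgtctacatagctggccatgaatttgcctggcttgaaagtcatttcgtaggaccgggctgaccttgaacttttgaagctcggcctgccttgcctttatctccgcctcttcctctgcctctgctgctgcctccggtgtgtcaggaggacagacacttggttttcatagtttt
Sgk1 chr10:21993640-21993939: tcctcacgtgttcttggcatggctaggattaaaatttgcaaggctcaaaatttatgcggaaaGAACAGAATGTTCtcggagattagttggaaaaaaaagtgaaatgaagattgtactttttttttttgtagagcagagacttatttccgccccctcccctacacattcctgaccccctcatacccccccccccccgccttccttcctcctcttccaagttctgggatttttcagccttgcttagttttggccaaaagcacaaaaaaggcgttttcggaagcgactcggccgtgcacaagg
Sgk1 chr10:21994416-21994715: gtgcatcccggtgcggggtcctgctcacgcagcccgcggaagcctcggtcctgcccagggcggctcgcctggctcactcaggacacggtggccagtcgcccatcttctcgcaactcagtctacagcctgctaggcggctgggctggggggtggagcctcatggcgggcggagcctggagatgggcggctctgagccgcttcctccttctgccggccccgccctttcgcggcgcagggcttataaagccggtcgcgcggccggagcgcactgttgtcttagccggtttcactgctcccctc
The first holds the TCF motif from base -179 to -173 relative to its start, and the second the glucocorticoid receptor motif from -188 to -176. Elsewhere, 1 Akt1 promoter held the FOXO motif on the minus strand at -161 to -155, and 1 Akt2 promoter held the TCF motif at 2 places. No match was found in these windows of Irs1, Irs2, Foxo1 and Foxo3. A match is a description of the letters only.

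The libraries held an estimated 21.5 to 32.4 M reads assigned to genes. Gsk3a stood at 141 to 160 in the 4 libraries of the GSK3α line and at 76.2 to 79.9 in those of the GSK3β line, and Gsk3b at 52.7 to 58.2 and 235 to 258. Reads of a transgene and of the endogenous gene cannot be told apart in these values. All 10 markers of pluripotent stem cells had values, and their summed level was 6486 to 6762 over all libraries. The sums were far lower for markers of neural cells (130 to 200), primitive endoderm (32.7 to 46.1), mesendoderm (14.03 to 18.9) and fibroblasts (11.3 to 16.1). Markers listed without a value included Col3a1, Dcn, Lum, Postn, Neurog2, Dcx, Mesp1, Cer1 and Foxa2.

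In the untreated GSK3α line, Foxo3 and Sgk1 had the highest levels per length among the 8 genes. All levels per length are deposited values per kilobase of the longest RefSeq-linked transcript, as mean ± SD over 2 libraries. Foxo3 stood at 33.9 ± 0.158, Sgk1 at 28.8 ± 0.0601, Akt1 at 12.8 ± 0.417 and Akt2 at 10.7 ± 0.453. Below them came Sgk3 at 4.33 ± 0.424, Foxo1 at 3.86 ± 0.137, Irs2 at 1.79 ± 0.0501 and Irs1 at 0.0863 ± 0.0157. The neighbours Sgk3 and Foxo1 lay within their SDs of each other. The order depends on the length used: per kilobase of all annotated exon bases, Sgk1 (18.2) was above Foxo3 (12.9), and Sgk3 (1.14) came seventh. In the GSK3β line Sgk1 led on both lengths, with 35.4 ± 1.80 per kilobase of transcript untreated and 65.2 ± 1.60 with 3MB-PP1.

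**Figure D1:**
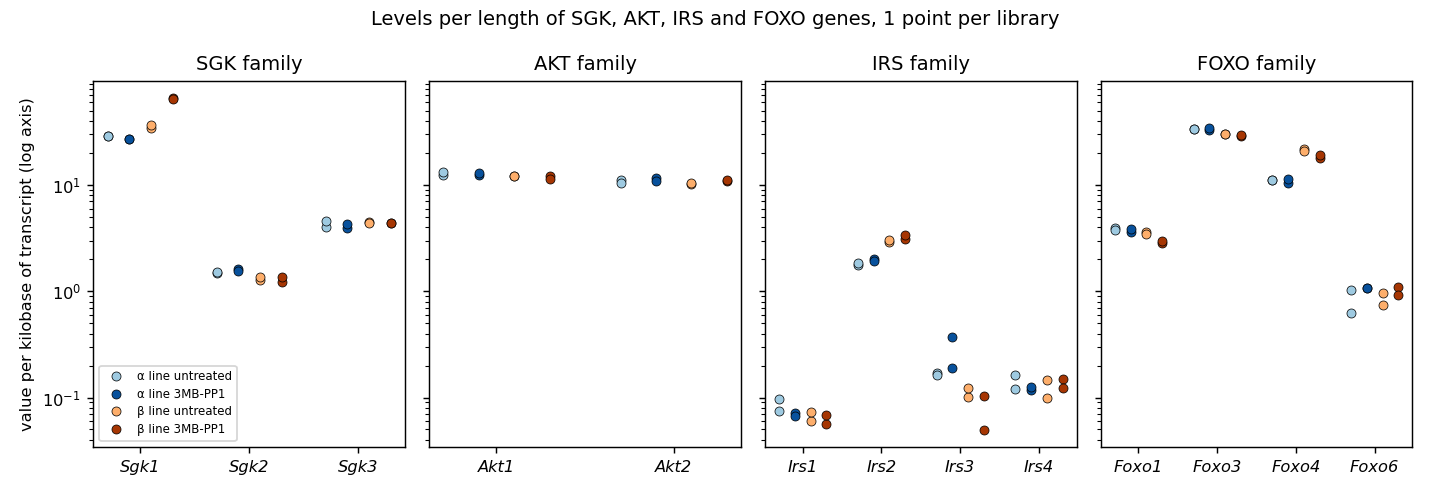
Deposited value per kilobase of the longest RefSeq-linked transcript (y axis, log scale) for 13 genes of the SGK, AKT, IRS and FOXO families, 1 point per library, coloured by group. Sgk1 reaches 65.2 in the treated GSK3β line against 28.8 in the untreated GSK3α line, while Irs1 stays below 0.1 in every library.

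Within the SGK, IRS and FOXO families, 1 or 2 genes held most of the RNA per length. In the untreated GSK3α line Sgk1 made up 83.2% ± 1.07 (SD, n = 2) of the SGK family, against, for untreated GSK3β cells, 86.1% ± 0.657, with the rest from Sgk3 and Sgk2. Irs2 held 82.0% ± 1.09 of the IRS family there and 90.8% ± 1.31 in the untreated GSK3β line. Foxo3 held 68.3% ± 0.506 of the FOXO family in untreated GSK3α cells and 53.9% ± 0.625 in untreated GSK3β cells, where Foxo4 held 38.2% ± 0.690. These shares also depend on the transcript length assumed for each gene.

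The first question was whether the 8 genes responded to 3MB-PP1 in each line. Of the 7 genes tested, 2 passed in the GSK3β line, 1 higher (Sgk1) and 1 lower (Foxo1), which is 28.6%, where 14.9% of all 13959 tested genes passed (7.49% higher and 7.44% lower). In the GSK3α line 0 of 7 passed by limma-trend and 0 by limma-voom, and 1, Sgk1, had an unadjusted p under the threshold (0.0458); over all genes 0.881% passed there (0.265% higher and 0.616% lower). The median log2 change of the 7 was -0.00 in the GSK3β line and -0.02 in the GSK3α line, against -0.01 and 0.01 over all tested genes. Irs1 lay under the minimum mean of 1 and was not tested.

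Sgk1 encodes the serum- and glucocorticoid-regulated kinase, whose RNA is known to be induced quickly by many stimuli. The gene lies at chr10:21882184-21999903. Its deposited values were 106 and 114 in the untreated GSK3β line and 205 and 198 with 3MB-PP1, and in the GSK3α line 89.0 and 89.2 without and 84.5 and 84.0 with the inhibitor. The groups did not overlap in either line: the treated libraries were the higher ones in the GSK3β line and the lower ones in the GSK3α line. How large a share of all tested genes lies apart like this with 3MB-PP1 was not computed. No weight is therefore put on such separation, for Sgk1 or for the genes below. On the log2(value + 1) scale the change was 0.87 (SE 0.04, adjusted p = 1.67e-11) in the GSK3β line. In the GSK3α line it was -0.08 (95% interval -0.16 to -0.00, adjusted p = 0.41) and did not pass. The difference between the 2 responses was 0.95 (95% interval 0.84 to 1.06, adjusted p = 4.88e-09). It was the 1 of the 7 genes whose response differed between the lines (14.3%), against 6.53% of all tested genes (3.62% with a higher and 2.9% with a lower response in the GSK3β line). Its share of the SGK family in the GSK3β line was 86.1% untreated and 92.0% ± 0.345 (SD, n = 2) with the inhibitor. In bulk RNA, fewer cells of a type and less RNA per cell cannot be told apart. Beside this result, in the GSK3β line, the summed neural markers were 143 to 151 untreated and 194 to 200 treated, primitive endoderm markers 32.7 to 33.1 and 41.7 to 44.4, and mesendoderm markers 14.03 to 15.1 and 17.7 to 18.4. Most of the first and second of these differences lay in 1 gene each, Tubb3 (125 ± 6.41 to 179 ± 3.96) and Lama1 (18.5 ± 0.394 to 27.8 ± 2.41; SD, n = 2). Of 5 tested neural markers 1 rose (Tubb3) and 1 fell (Neurod1, 8.87 ± 1.39 to 6.16 ± 0.346), with a median log2 change of -0.18. Of 5 tested primitive endoderm markers 1 rose (20%), and of 4 mesendoderm markers 2 rose (50%), Gsc by 0.54 and Evx1 by 0.52. Both lay near the minimum mean of 1 used for testing, with means of 1.23 and 1.01 over all libraries. Evx1 was highest in the treated GSK3β line (1.46 ± 0.315), which helped it past that minimum, so no weight is put on its rise. Of the 10 pluripotency markers 2 rose and 4 fell (60%), and 40% of the tested neural markers were called, against 14.9% of all tested genes. The part of these markers in the result was not tested.

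Sgk3, at chr1:9798107-9900845, encodes an SGK kinase with a lipid-binding domain that places it on endosomes. It stood at 15.2 and 17.5 in the untreated GSK3α line, 14.8 and 16.2 with the inhibitor, 17.0 and 16.5 in the untreated GSK3β line, and 16.6 and 16.7 with the inhibitor. These values overlapped in both lines. The log2 change was -0.00 (95% interval -0.16 to 0.15) in the GSK3β line and -0.07 (-0.22 to 0.08) in the GSK3α line, with adjusted p = 0.976 and 0.775.

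**Figure D2:**
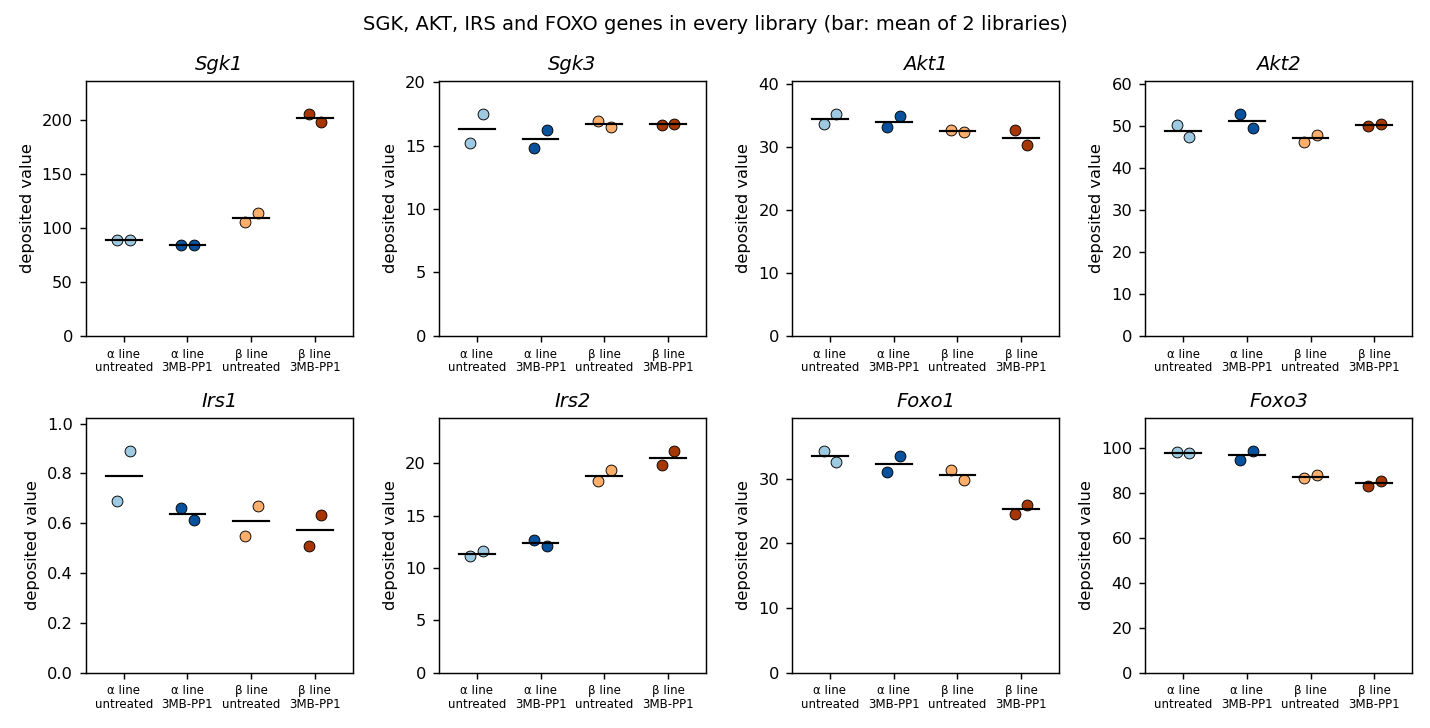
Deposited value (y axis, from 0 and scaled for each gene) of the 8 genes in the 4 groups, 1 point per library, with a bar at the mean of 2 libraries. The treated GSK3β libraries of Sgk1 lie at 205 and 198, above all others, and those of Foxo1 at 24.6 and 25.9, below all others.

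Akt1, at chr12:112653821-112674884, and Akt2, at chr7:27591552-27640826, encode the broadly expressed kinase and the form best known from insulin-driven glucose uptake. Akt1 was at 33.7 and 35.3 in the untreated GSK3α line, 33.2 and 34.9 with the inhibitor, 32.8 and 32.4 in the untreated GSK3β line, and 32.8 and 30.3 with the inhibitor. Its groups overlapped in both lines, and its changes were -0.02 (adjusted p = 0.934) and -0.05 (adjusted p = 0.613) in the GSK3α and GSK3β lines. Akt2 was at 50.2 and 47.3, 52.7 and 49.5, 46.2 and 47.9, and 49.9 and 50.5 in the same order of groups, with overlap in the GSK3α line. The treated GSK3β libraries of Akt2 were both above the untreated ones, by 0.09 on the log2 scale (95% interval -0.00 to 0.19, adjusted p = 0.197), which did not pass.

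Irs1 and Irs2 encode the adaptors that link the insulin and IGF1 receptors to PI3K. Irs1, at chr1:82233101-82291416, had values of 0.51 to 0.89 in all libraries, which is 14 to 22 estimated reads. With no minimum mean its log2 change was -0.03 (95% interval -0.30 to 0.23) in the GSK3β line and -0.13 (-0.39 to 0.14) in the GSK3α line. Its adjusted p lay between 0.369 and 0.908 over the 4 comparisons, so no difference passed, and the scale understates changes at such low values. Irs2, at chr8:10984681-11008458, was at 11.1 and 11.6 in the untreated GSK3α line, 12.7 and 12.1 with the inhibitor, 18.3 and 19.4 in the untreated GSK3β line, and 19.8 and 21.2 with the inhibitor. The treated libraries were above the untreated ones in both lines, each time by 0.12 on the log2 scale, and neither change passed (adjusted p = 0.545 in the GSK3α line and 0.294 in the GSK3β line). The difference between these responses was -0.00, with a 95% interval from -0.21 to 0.21.

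Foxo1 and Foxo3 encode forkhead factors that AKT and SGK keep out of the nucleus. Foxo1, at chr3:52268336-52353221, was at 31.3 and 29.8 in the untreated GSK3β line and 24.6 and 25.9 with the inhibitor, and at 34.3 and 32.6 and at 31.1 and 33.5 in the GSK3α line. The groups were apart in the GSK3β line and overlapped in the GSK3α line. Foxo1 fell by 0.27 on the log2 scale in the GSK3β line (SE 0.06, adjusted p = 0.00267), and the call ended without treated replicate 1, at -0.23 with adjusted p = 0.0591. In the GSK3α line the change was -0.05 (adjusted p = 0.792). The difference between the lines was -0.22 (95% interval -0.38 to -0.05, adjusted p = 0.11) and did not pass. Foxo3, at chr10:42181841-42276755, was at 98.2 and 97.5 in the untreated GSK3α line, 94.8 and 98.6 with the inhibitor, 86.5 and 87.8 in the untreated GSK3β line, and 82.9 and 85.4 with the inhibitor. The groups overlapped in the GSK3α line, and in the GSK3β line both treated libraries lay below the untreated ones. The changes were -0.02 (adjusted p = 0.898) and -0.05 (adjusted p = 0.397), and neither passed.

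**Figure D3:**
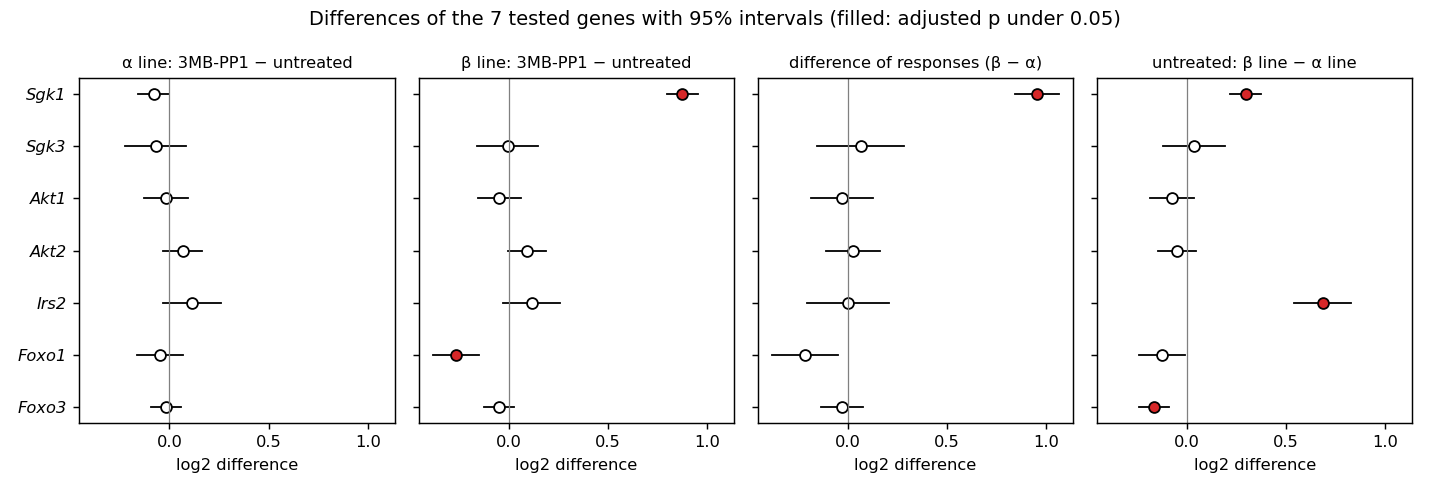
Log2 difference (x axis) of the 7 tested genes (y axis) in the 4 comparisons, with 95% intervals from limma; filled points have an adjusted p under 0.05. Sgk1 is filled at 0.87, 0.95 and 0.30, Foxo1 at -0.27, Irs2 at 0.68 and Foxo3 at -0.17.

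The second question was whether the lines differed without inhibitor. Of the 7 tested genes, 3 differed, 2 higher and 1 lower in the GSK3β line (42.9%), against 48.2% of all tested genes, so the share was near the background. That background was 22.3% higher and 25.9% lower, or 3111 and 3612 genes; with each library scaled to its sum the split was 4023 and 2805. Irs2 was higher by 0.68 (SE 0.07, adjusted p = 1.97e-07) and Sgk1 by 0.30 (SE 0.04, adjusted p = 2.91e-06), and Foxo3 was lower by a log2 difference of -0.17 (SE 0.04, adjusted p = 0.000905). For each of the 3, the libraries of the 2 lines did not overlap. The share of all tested genes separated in this way was not computed, so no weight is put on it. Foxo1 was at -0.13 (adjusted p = 0.0664), with both GSK3β libraries below both GSK3α libraries, and did not pass. Akt1, Akt2 and Sgk3 were at -0.08, -0.05 and 0.04, with adjusted p = 0.231, 0.386 and 0.722. This comparison shares its untreated libraries with the inhibitor comparisons, so its values for a gene are not independent of theirs.

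Foxo4, another FOXO gene, was at 68.6 and 66.7 in the untreated GSK3β line and 57.0 and 60.7 with 3MB-PP1, a log2 change of -0.20 (adjusted p = 0.00807). The call ended without treated replicate 1 (adjusted p = 0.161) or untreated replicate 1 (0.0659). In the GSK3α line Foxo4 was at 35.0 and 34.9 untreated and 33.1 and 35.9 treated, which overlap, a change of -0.02 (adjusted p = 0.919). Without inhibitor, Foxo4 was higher in the GSK3β line by 0.93 (adjusted p = 1.54e-11). Sgk2, the remaining SGK gene, was at 3.69 to 4.93 over all libraries and passed in no comparison.

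Upstream of AKT, genes of 3 lists were compared with the 14.9% of all tested genes that passed in the GSK3β line. Of 4 tested ligands and receptors, 1 rose (25%): Igf2, which encodes a growth factor, went from 5.88 ± 0.298 to 7.70 ± 0.872 (SD, n = 2; log2 change 0.34, adjusted p = 0.0394). That call ended with no minimum mean (0.0578), with a pseudocount of 0.25 (0.0532), and without any 1 of the untreated GSK3β libraries, the treated GSK3α libraries or treated GSK3β replicate 1 (0.0511 to 0.387). The PI3K list of 7 genes holds Pik3ip1 besides genes of subunits. Of these 7, 2 fell (28.6%), both of catalytic subunits: Pik3cb by 0.24 (adjusted p = 0.000158) and Pik3ca by 0.21 (adjusted p = 0.00889). The Pik3ca call ended without treated replicate 1, where its change was -0.18. Of 10 genes of PDK1 and the TOR complexes, 1 rose (10%): Pdpk1, the gene of PDK1, by 0.14 (adjusted p = 0.0158), a call that ended without untreated replicate 1 (0.162) or treated replicate 1 (0.173). The medians of these lists were 0.14 for ligands and receptors, -0.12 for the PI3K list and 0.01 for PDK1 and TOR, against -0.01 over all tested genes. In the GSK3α line 0 of 4, 0 of 7 and 0 of 10 passed, against 0.881% of all tested genes. The response differed between the lines in 0 of 4, 0 of 7 and 0 of 10, against 6.53%. Untreated and treated means in the GSK3α line were 70.8 and 64.3 for Pik3cb and 30.4 and 28.8 for Pik3ca. They were 2.89 and 3.08 for Igf2 and 99.8 and 102 for Pdpk1.

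Of 13 genes of AKT and SGK substrates and effectors, 2 fell in the GSK3β line (15.4%, close to the 14.9% of all genes). Mdm2, the gene of the p53 ubiquitin ligase, fell by 0.21 (adjusted p = 0.000131), and Rheb, the gene of the GTPase that activates TOR complex 1, by 0.17 (adjusted p = 0.00362). The Rheb call ended without untreated replicate 1 (0.0511) or treated replicate 1 (0.0608). These genes were named after their values were seen, since the count was small. In the untreated and treated GSK3α line Mdm2 was at 185 ± 1.78 and 174 ± 1.52, and Rheb at 83.7 ± 0.113 and 83.4 ± 0.759 (SD, n = 2).

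FOXO target genes went both ways in the GSK3β line. This list and the others here were chosen with earlier results of these data known. A share above that of all tested genes may therefore be partly set by the choice. Of 32 listed, 27 had values and were tested; 4 rose and 8 fell (44.4%, against 14.9% of all tested genes, 7.49% higher and 7.44% lower), with a median of -0.10, and without treated replicate 1 the counts were 4 and 4. Cdkn1a, the gene of the cell cycle inhibitor p21, went from 39.0 ± 3.66 to 74.4 ± 3.03 (SD, n = 2; adjusted p = 8.36e-10), and Klf2, a transcription factor gene of naive pluripotency, from 129 ± 0.542 to 187 ± 3.78 (log2 change 0.53, adjusted p = 1.66e-09). Eif4ebp1, which encodes a repressor of translation, rose by 0.19 (adjusted p = 0.000246), and Sod2, which encodes the mitochondrial superoxide dismutase, by 0.19 (adjusted p = 0.000799). In the other direction, Ccng2, a cyclin gene linked to cell cycle arrest, went from 20.5 ± 1.02 to 10.4 ± 0.131 (log2 change -0.91, adjusted p = 1.73e-08). The genes of the proapoptotic proteins PUMA and BIM fell too, Bbc3 by 0.49 (adjusted p = 1.31e-05) and Bcl2l11 by 0.41 (adjusted p = 2.05e-05). Eif4ebp1, Sod2, Bbc3 and Bcl2l11 were named after their values were seen. Irs2, one of the 8 genes, also stands in this list, so it is counted there as well. Cdkn1b, Insr, Rictor and Pik3ip1 likewise stand both here and in another of the lists above. The cell type markers moved in the same libraries as given above for Sgk1, with 6 of 10 pluripotency markers called and a neural median of -0.18, and their part in these changes was not tested.

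**Figure D4:**
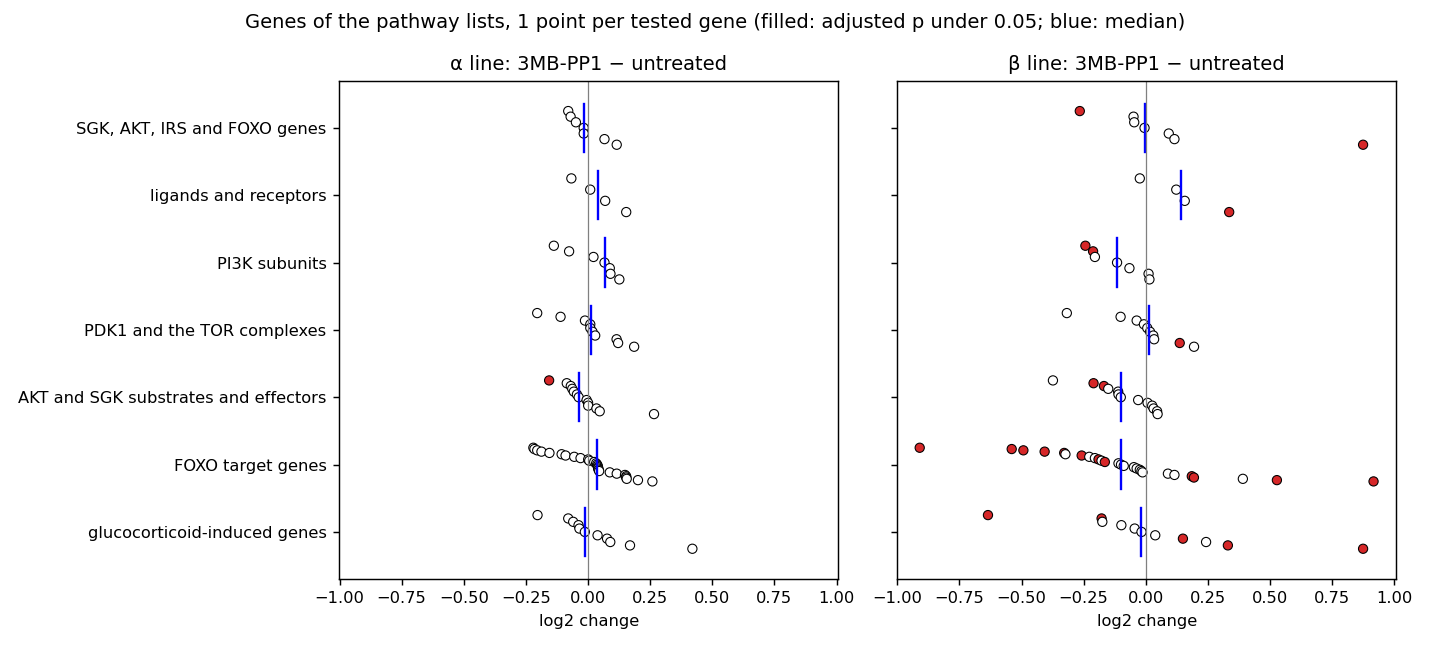
Log2 change with 3MB-PP1 (x axis) of each tested gene of 7 lists (rows) in the GSK3α line and the GSK3β line; filled points have an adjusted p under 0.05 in limma and blue lines mark the list medians. FOXO target genes spread from -0.91 to 0.92 in the GSK3β line and from -0.22 to 0.26 in the GSK3α line.

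Glucocorticoid-induced genes, a list that holds Sgk1 itself and was also chosen with earlier results known, went both ways. Of 11 tested, 3 rose and 2 fell in the GSK3β line (45.5%, against 14.9% of all tested genes), with a median of -0.02, and without treated replicate 1 of that line 3 were called in all. Besides Sgk1, the metallothionein gene Mt1 rose from 50.9 ± 1.07 to 64.4 ± 3.99 (log2 change 0.33, adjusted p = 8.19e-05). Mt2 rose by 0.15 (adjusted p = 0.00962), a call that ended without untreated replicate 2 (0.0761) or treated replicate 1 (0.121). Zfp36, whose product speeds the decay of cytokine mRNAs, fell by 0.64 (adjusted p = 0.000561), and Ddit4, the gene of an inhibitor of TOR complex 1, by 0.18 (adjusted p = 0.0121), the latter not without untreated replicate 1 (0.168) or treated replicate 1 (0.25). These last 2 were named after their values were seen. Tsc22d3, another glucocorticoid-induced gene, was at 5.80 ± 0.140 and 7.06 ± 0.692 in the untreated and treated GSK3β line (log2 change 0.24, adjusted p = 0.139). In the GSK3α line 0 of 11 passed, with a median of -0.01. Tsc22d3 had the highest log2 change there (0.42), with 2.25 to 2.31 untreated and 3.26 to 3.53 treated. Mt1 was at 63.9 to 69.5 and 73.9 to 76.2, and Mt2 at 176 to 188 and 189 to 195. Zfp36 means were 4.95 and 4.16, and Ddit4 changed by 0.09. The response differed between the lines in 2 of 11 (18.2%, against 6.53% of all tested genes), Sgk1 and Ddit4.

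In the GSK3α line, Gsk3a, the targeted gene and an AKT substrate, changed by -0.16 with 3MB-PP1 (adjusted p = 0.0345). The Gsk3a call ended without any 1 library of that line (0.0791 to 0.353) or either treated library of the GSK3β line (0.0512). Of the FOXO target genes 0 of 27 passed in the GSK3α line by limma-trend and 0 by limma-voom, against 0.881% of all tested genes, and 9 had an unadjusted p under 0.05. Without either untreated library of the GSK3β line, which enter through the shared spread, 3 of the 27 passed. Cdkn1a lay closest, at 71.0 ± 1.16 untreated and 60.8 ± 2.35 treated (log2 change -0.22, adjusted p = 0.0547). It passed by limma-trend with a minimum mean of 5 (0.044), median-of-ratios scaling (0.0455) or the replicate block (0.04). With only the libraries of that line it passed too (0.00641). As said above, the FOXO list was chosen with earlier results known. The response of the FOXO target genes differed between the lines in 10 of 27, 4 with a higher and 6 with a lower change in the GSK3β line (37%, against 6.53% of all tested genes, 3.62% higher and 2.9% lower). That count was 6 without treated replicate 1 of either line, the lowest over the libraries left out.

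Without inhibitor the FOXO target genes split evenly, with 9 of 27 higher and 9 lower in the GSK3β line (66.7%, against 48.2% of all tested genes). Cdkn1a was lower there by a log2 difference of -0.85 (adjusted p = 1.99e-10). All 4 tested ligand and receptor genes differed, 3 higher and 1 lower. Insr, the insulin receptor gene, was higher by 0.34 (adjusted p = 0.0016), Igf1r, the IGF1 receptor gene, by 0.17 (adjusted p = 0.0263) and Igf2 by 0.82 (adjusted p = 4.29e-06). The Igf1r call ended without untreated GSK3β replicate 2 (0.273), where 2 of the 4 passed, or without either untreated GSK3α library (0.067 and 0.0863).

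For each gene that passed in any comparison, the 3 genes with the most similar pattern were taken by Pearson's r of log2(value + 1) over the 8 libraries, among 10802 genes with a mean of at least 5. The libraries fall into 4 groups, so these values describe group patterns. Because the similar genes were picked on these libraries, their tests are not independent of the gene they resemble. Sgk1 was most like Sall3 (r = 0.992), Nop14 (0.992) and Nsf (0.991). Sall3, a zinc finger gene, had group means of 24.98 and 22.9 in the untreated and treated GSK3α line and 32.3 and 59.9 in the GSK3β line, a log2 change of 0.87 in the latter (adjusted p = 2.5e-08). Irs2 was most like Ptch1 (0.997), Tpcn1 (0.996) and Scn3a (0.996), Foxo1 like Map3k1 (0.994), 4833439L19Rik (0.993) and Cenpq (0.984), and Foxo3 like Ipo11 (0.996), Ccdc186 (0.994) and 2810474O19Rik (0.992). Among the 8 genes themselves, Sgk1 and Foxo1 had r = -0.96 and Irs2 and Foxo3 r = -0.97 over the same 8 libraries.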

How the data were processed

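The authors used TopHat2 for alignment and Partek for gene values, on build mm10, per the submitters' processing notes; versions, annotation and strand setting are not given in the sources used here. RNA was isolated with RNeasy and libraries made with a TruSeq RNA kit, per the labels' protocols. The deposited values are a signal: estimated gene counts that stand at an equal upper quartile in all 8 libraries (spread 0.0548%) and are not divided by length. Taking the smallest value of a library as 1 read, 63.5 to 67.6% of values up to 20 reads were whole within 0.1, so no count test was used. The design had named a count test first and limma-trend for other units.

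Genes with a mean of at least 1 were tested (13959, with 3529 left out) by limma-trend (limma 3.58.1, R 4.3.3) on log2(value + 1), which understates changes of low genes. The fit had 4 group means and 4 residual degrees of freedom, with two-sided Benjamini-Hochberg adjusted p over all tested genes in each of 4 comparisons and a threshold of 0.05. It was tested on simulated data. The members and lists were chosen with earlier results of these data known. Named genes were the 8 members, Gsk3a and Gsk3b, up to 4 genes of each list, and the 3 genes most like each called member. The up to 4 were those called in any comparison, by their lowest adjusted p over the 4 comparisons. Where none was called, the 2 with the highest mean were taken. Others are marked. Some genes are not reported here. Gene positions are GENCODE on GRCm38. Irs1, Irs2 and Foxo1 share exon bases with opposite-strand genes listed without values. Alternatives were pseudocounts, filters, scalings, limma-voom, the replicate block, and leaving out each library.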

Additional observations from a re-analysis of the deposited data

Results flagged for a closer look

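The response to 3MB-PP1 differed between the lines, by the limma test of the difference itself (GSK3β line minus GSK3α line, log2 scale), for the genes that follow. The differences were 0.95 for Sgk1, 1.14 for Cdkn1a, 0.99 for Sall3, 0.50 for Klf2, 0.18 for Nsf, 0.19 for Sod2, 0.15 for Eif4ebp1 and 0.19 for Gsk3a. They were -0.72 for Ccng2, -0.44 for Bbc3, -0.30 for Bcl2l11 and -0.27 for Ddit4. Sall3 and Nsf were picked by their likeness to Sgk1 over these same libraries, so their differences are not results separate from that of Sgk1. Sgk1 (adjusted p = 4.88e-09) and Cdkn1a (adjusted p = 4.84e-08) both had a change above 0 in the GSK3β line and below 0 in the GSK3α line. Neither passed in the GSK3α line, though Cdkn1a did there under some alternatives given above. Sall3 (0.87 and -0.12 in the GSK3β and GSK3α lines) and Gsk3a (0.03 and -0.16) had the same signs. Ddit4 (-0.18 and 0.09) had the reverse. The differences of Bcl2l11 (adjusted p = 0.0184), Ddit4 (0.0179), Nsf (0.0214), Gsk3a (0.0244), Sod2 (0.0282) and Eif4ebp1 (0.0435) ended when at least 1 of the libraries was left out. That of Eif4ebp1 also ended with no minimum mean (0.0549) and with each library scaled to its sum (0.0631).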

How the results depend on the processing

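Of the calls of the 8 genes, 1 was lost under an alternative: Foxo1 in the GSK3β line without treated replicate 1. None reversed. Leaving out each library in turn moved the number of genes called from 123 to between 16 and 186 in the GSK3α line, and from 2084 to between 864 and 2277 in the GSK3β line. For the difference it moved from 911 to between 353 and 1339, and for the untreated lines from 6723 to between 5669 and 6554. The lowest counts came without treated GSK3α replicate 1 (16) and without treated GSK3β replicate 1 (864 and 353); counts also moved by over 1.5 times without the other GSK3α libraries (25 to 60) or an untreated GSK3β library (186) in the GSK3α line, without untreated GSK3β replicate 1 (1181) in the GSK3β line, and without that library (566) or a treated GSK3α library (450 and 472) for the difference. A group left with 1 library was assumed to vary like the others. With the replicate block the counts were 106, 1997, 831 and 6648. Cdkn1a in the GSK3α line (adjusted p = 0.04) and Igf2r, of the ligand and receptor list, in the GSK3β line (0.0379) gained a call. The Eif4ebp1 difference (0.0609) and Klf2 between the untreated lines (0.0542) lost theirs, and no call of the 8 genes changed. The replicate numbers did not pair the samples (r of deviations from -0.121 to 0.0589 over 10803 genes). A crossed pairing in the GSK3α line, added after seeing the data, gave 85. Irs1 had 14 to 22 reads, and its intervals with no minimum mean are given above.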
